A study of Mus musculus with 6 samples.

Results

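The transcript of Gtsf1 was followed exon by exon in 6 eCLIP libraries of the Gtsf1 protein itself. The members were the pre-mRNA feature of the gene and every exon and intron feature named after it in the deposited count files, which came to 101 of the 1753368 features with any read. They were 53 exon features, 47 intron features and 1 pre-mRNA feature. The same exon is listed under several transcripts, and features with identical counts in all 6 libraries were counted once, which left 8 distinct exon features and 6 distinct intron features. The gene (gene ID 74174) lies at chr15:103402458-103430445 on the minus strand of GRCm38.p6, the assembly that mm10 names, and spans 27988 bases in RefSeq. The features themselves have no coordinates in the files.

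Gtsf1, also called Asterix, is a small zinc-finger protein that binds RNA and acts with nuclear PIWI proteins in the piRNA pathway, which silences transposons in germ cells. In eCLIP, ultraviolet light joins protein to the RNA it touches, the protein is purified after RNase treatment, and the RNA fragments are sequenced beside a part of the lysate kept as input. A cDNA construct carries exons joined without introns, whereas transcription of the chromosomal gene also yields intron sequence. The labels do not say whether the insert used here was a cDNA.

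All libraries came from P19 cells, a mouse embryonal carcinoma line, transiently transfected with mouse Gtsf1 carrying a TEV site and a Strep tag in the pEF vector and collected 48 hours later. Vectors of this family drive expression from a translation elongation factor promoter. The 4 groups were input of cells irradiated at 254 nm with 400 mJ (n = 2), MagStrep pull-down of such cells (n = 2), input of cells without crosslinking (n = 1) and pull-down of cells without crosslinking (n = 1). Every group carried the construct, and no untransfected library was analysed here, so reads of the construct and of the chromosomal gene cannot be told apart by group. Each library was made from a lysate of many cells, so more transfected cells and more Gtsf1 RNA per cell cannot be told apart either. No pull-down from cells without the tagged protein was analysed here, so retention of RNA by the beads themselves was not tested. The labels do not say whether same-group libraries came from separate cultures, so p-values measure the spread between these libraries, which may be technical.

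The libraries held between 13168593 and 18418166 reads, of which 6.99% to 14.4% had no annotation. Each read was worth between 0.0543 and 0.0759 RPM, the count scaled to a library of 1000000 reads. Among markers of pluripotent cells, Pou5f1, which encodes the transcription factor Oct4, had 23.2 to 35.4 RPM over its exons, and Lin28a, an RNA-binding protein of stem cells, had 12.3 to 26.6 RPM. Nanog, another pluripotency factor, stayed at or under 0.687 RPM. Of the rest of the 8 pluripotency markers listed, Sox2 had 3.04 to 7.41 RPM, Utf1 1.06 to 2.46 RPM and Sall4 0.548 to 1.34 RPM. Zfp42 stayed at or under 0.158 RPM and Dppa4 at or under 0.0707 RPM. Among 6 markers of differentiated cells, the highest value in any library was 3.13 RPM, for Gata6 in crosslinked pull-down 1. The highest value of any of 5 germ cell markers in any library was 0.220 RPM, for Ddx4, an RNA helicase of the germ line. The tRNA class moved with the Gtsf1 signal between the crosslinked pull-downs, with 0.338% of the reads in pull-down 1 and 0.903% in pull-down 2, against 0.105% in each crosslinked input. Its part in the values below was not tested.

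The first question was where along the gene the reads lay. Summed over all 53 exon features, Gtsf1 had 775 and 780 reads in inputs of crosslinked cells, 1670 and 3796 in the pull-downs of crosslinked cells, 308 in the non-crosslinked input and 203 in its pull-down. The pre-mRNA feature had 819 and 852 reads with crosslinking in the inputs, and 1644 and 3329 in the crosslinked pull-downs. It had 696 reads in the non-crosslinked input and 535 reads in the non-crosslinked pull-down. The intron features together had 8.78 and 1.82 reads in inputs of crosslinked cells, 5.40 and 8.10 in the pull-downs of crosslinked cells, 0.909 in the non-crosslinked input and 0.378 in its pull-down. Intron sums under 1 are possible because a read that matches several features of a class is split between them. No intron feature held a whole read in any library, and the highest held 0.911.

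**Figure D1:**
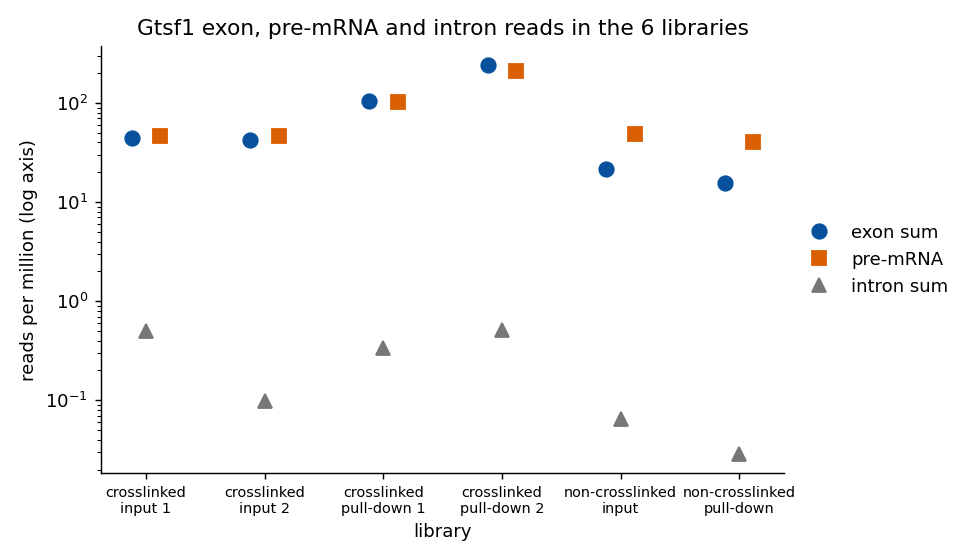
RPM of Gtsf1 in each library on a log axis, with circles for the sum of the exon features, squares for the pre-mRNA feature and triangles for the sum of the intron features. Exon and pre-mRNA points lie close together in the 4 crosslinked libraries, pre-mRNA lies above exon in both non-crosslinked libraries, and intron points lie between 0.0287 and 0.512 RPM throughout.

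In each library, nearly all reads that fell in exon or intron features were exonic. The exon share of exon and intron reads was 98.9% and 99.8% for the crosslinked inputs, and 99.7% and 99.8% for the pull-downs. The difference between the means was 0.41 percentage points (99.7 ± 0.0773% against 99.3 ± 0.627%, SD, n = 2 each), with a two-sided exact permutation p of 0.667. With 2 libraries a group the smallest p this test can give is 0.333. Without crosslinked input 1 the difference was -0.035 percentage points, so its sign rests on the 8.78 intron reads of that library.

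Gtsf1 stood near the end of the range of genes in this respect. In the crosslinked inputs, 978 genes had at least 10 RPM over exons and a span of at least 20 kb, and their median ratio of intron to exon RPM was 1.79. The ratio of Gtsf1 was 0.00693, the fourth lowest (rank 4). In the crosslinked pull-downs it was 0.00247 against a median of 1.58, rank 1 of 730 genes from the lowest. In the non-crosslinked input the ratio was 0.00295, rank 1 of 539, and in the non-crosslinked pull-down 0.00186, rank 3 of 305. These ranks are a description, since introns and exons of different genes differ in length and the ratio is not per base.

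The 8 spliced comparison genes gave a scale for these levels, but 7 of them span under 20 kb and so are not among the genes ranked above. Over their exons, Eef1a1 and Eef2, both translation elongation factors, had 363 and 280 RPM and 257 and 217 RPM in the crosslinked inputs, and their introns had 3.61 and 3.31 RPM and 5.96 and 4.89 RPM. Gapdh, an enzyme of glycolysis, had 95.8 and 65.3 RPM over exons and 0.137 and 0.126 RPM over introns. Gapdh spans 4616 bases, and its exon share of exon and intron reads was 99.9% and 99.8% in these libraries. Hsp90ab1, a chaperone, had exon shares of 87.9% and 89.9%. Hprt, an enzyme of purine salvage and the 1 gene of the list with a span like that of Gtsf1 (33583 bases), had 8.40% and 7.64%, with 0.859 and 0.652 RPM over exons.

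The pre-mRNA feature of Gtsf1 was unusual in the other direction. Its ratio to the exon sum was 1.07 in the crosslinked inputs, against a median of 0.150 over the 1344 genes with at least 10 RPM over exons, and ranked 3 from the highest. In the crosslinked pull-downs the ratio was 0.909 (median 0.119), rank 1 of 1062 genes. It was 2.26 in the non-crosslinked input (median 0.201), rank 1 of 781, and 2.64 in the non-crosslinked pull-down (median 0.203), rank 1 of 499. Eef2 had 62.1 and 52.9 RPM of pre-mRNA in the crosslinked inputs, or 19.5% and 19.6% of its exon and pre-mRNA reads, where Gtsf1 had 51.4% and 52.2%. For Actb, the cytoskeletal actin, these shares were 12.4% and 13.2%.

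The name of the pre-mRNA class does not by itself say which reads it holds. Each read was counted in 1 class, so the pre-mRNA reads of Gtsf1 were assigned to neither its exons nor its introns. Over all 6 libraries, 981 genes whose only exon features are numbered 1 and which have no intron feature had 201006 exon reads and 4 pre-mRNA reads, a pre-mRNA share of 0.00199%. The 17993 genes with an exon feature numbered above 1 had a pre-mRNA share of 17.5%. Pre-mRNA reads were thus counted almost wholly in genes with several exons. In a gene of 1 exon, exon and pre-mRNA cover the same bases, so this contrast may follow from the classes alone. It does not tell which reads the class holds. Whether the pre-mRNA reads of Gtsf1 cross exon borders, run into the introns or lie in parts of the gene that no exon feature covers is not given in the sources used here.

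**Figure D2:**
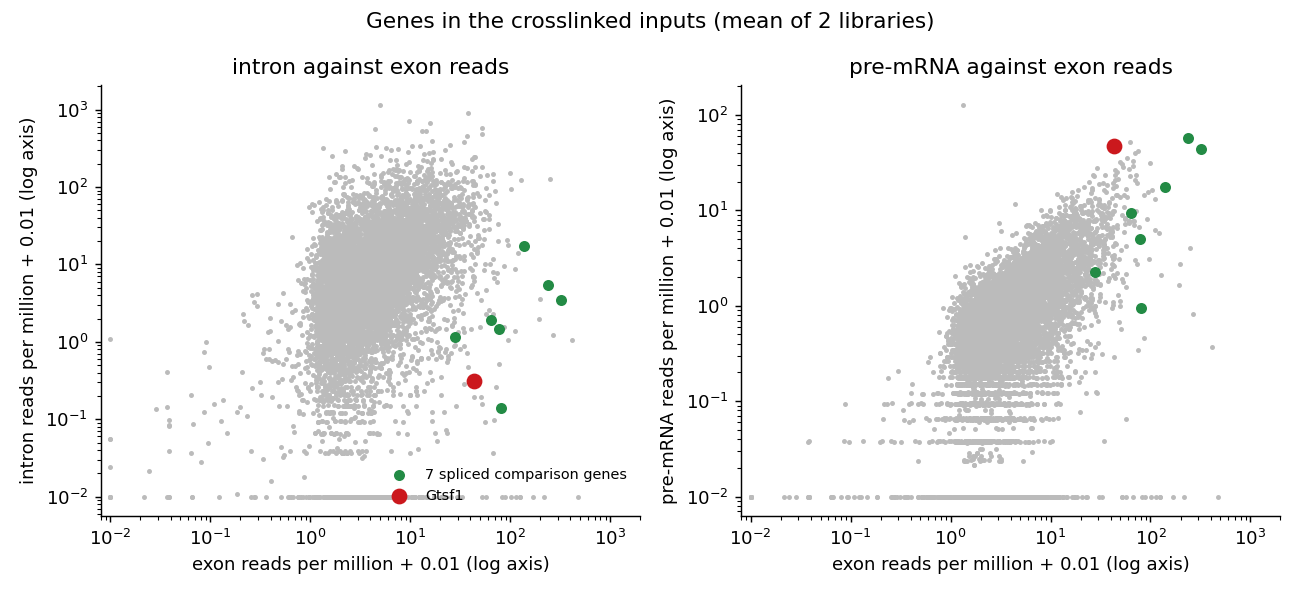
Intron (left) and pre-mRNA (right) RPM against exon RPM, each plus 0.01 and on log axes, for 8047 genes as the mean of the 2 crosslinked inputs. Gtsf1 (red) lies at 43.4 RPM over exons, at 0.301 RPM over introns and at 46.6 RPM of pre-mRNA, below most genes of its exon level on the left and above nearly all on the right, where green points are 7 spliced comparison genes.

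Within the exon sum, the reads lay in 6 exons, numbered here as in transcript 8 of the files. Exon 1 had 1 read in all, in crosslinked pull-down 1, out of 7531 exon reads over the 6 libraries. Exon 3 held the most in every library, with 335 and 357 reads in inputs and 635 and 1385 in pull-downs after crosslinking, and 195 in input and 94 in pull-down without it. Exon 2 had 212 and 199 reads in inputs and 319 and 666 in pull-downs after crosslinking, and 54 and 42 without it. Exon lengths are not in the files, so these counts compare libraries and not exons.

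Exons 4, 5 and 6 made up the rest. Exon 4 had 82 and 77 reads in inputs and 237 and 573 in pull-downs after crosslinking, and 22 in input and 33 in pull-down without it. Exon 5 had 26 and 22 reads in inputs and 211 and 462 in pull-downs after crosslinking, and 1 in input and 9 in pull-down without it. Exon 6 had 120 and 125 reads in inputs and 267 and 710 in pull-downs after crosslinking, and 36 and 25 without it. At each of exons 2 to 6 both crosslinked pull-downs lay above both crosslinked inputs in RPM, which held for 10.8% of all features tested.

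The annotation holds more of the gene than this. The files give features for 9 transcripts of Gtsf1, and transcript 7 has an intron numbered 9, so it has at least 10 exons. Reads were listed for 6 exons of that transcript. The files list only features with at least a fraction of a read, so its other exons had none in any of the 6 libraries.

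The second question was whether Gtsf1 RNA was higher in the pull-down of the Gtsf1 protein than in input after crosslinking. The exon sum had 44.4 and 42.3 RPM before and 103.6 and 239.8 RPM after the pull-down of crosslinked cells. The groups did not overlap, but the pull-downs differed from each other by more than a factor of 2. Means were 172 ± 96.3 RPM for pull-downs and 43.4 ± 1.44 RPM for inputs (SD, n = 2 each). The level was 2.39-fold above the mean input in pull-down 1 and 5.53-fold in pull-down 2. Among all genes with exon reads, Gtsf1 ranked 101 of 16291 in the crosslinked inputs and 8 of 18567 in the crosslinked pull-downs.

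The exon sum of Gtsf1 rose in the crosslinked pull-downs by 2.08 on the log2 scale (SE 0.29, edgeR adjusted p = 3.19e-05), where 4.24% of the 8495 genes tested were called higher. The median over all genes was -0.13. The log2 ratio was 1.33 without pull-down 2 and 2.57 without pull-down 1, and the adjusted p stayed at or under 0.0241 in the 13 settings run. In the same fit, 360 genes were called higher and 150 lower, a split of 392 to 43 with TMM factors and of 359 to 536 with unannotated reads in the library sizes. Both crosslinked pull-downs lay above both crosslinked inputs in 10.7% of the genes tested.

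The pre-mRNA feature moved with the exons. It had 46.9 and 46.3 RPM before and 102.0 and 210.3 RPM after the pull-down of crosslinked cells, and its log2 ratio was 1.84 (SE 0.36, edgeR adjusted p = 0.0249). Of the 39872 features tested, 6.41% were called higher and the median ratio was -0.21. The ratio was 1.21 without pull-down 2 and 2.28 without pull-down 1. With no filter on low features the adjusted p was 0.589 at the same ratio, so this call rests on the filter. As a share of the exon and pre-mRNA reads of the gene, pre-mRNA was 51.8 ± 0.584% of inputs and 48.2 ± 2.04% of pull-downs (SD, n = 2 each, two-sided exact permutation p = 0.333, the smallest possible).

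Introns gave no comparable signal, at a depth of a few reads. The intron sum was 0.503 and 0.0987 RPM before and 0.335 and 0.512 RPM after the pull-down of crosslinked cells, and the groups overlapped. Its mean over the 4 libraries, 0.362 RPM, was under the minimum of 1 RPM for a test. Without that minimum the log2 ratio was 0.49 (SE 0.69, edgeR adjusted p = 0.713), so a difference was not detectable at this depth. The ratio of exon to intron RPM on the log2(RPM + 1) scale, tested with limma over 8238 genes filtered on the exon sum alone, was higher in the pull-downs by 1.69 (SE 0.30, adjusted p = 0.0102), with 3.41% of genes called higher. On that scale the exon sum alone rose by 1.84 and the intron sum by 0.145. The ratio thus largely repeats the exon-sum result and is no separate evidence on exon against intron. With a pseudocount of 0.1 in place of 1 the ratio was higher by 1.28, with a limma adjusted p of 0.382. The call therefore depends on how the few intron reads are weighed.

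Folds were computed for each of the 5 exons. Mean RPM in the crosslinked pull-downs over that in the inputs was 2.70-fold for exon 2, 3.29-fold for exon 3, 5.73-fold for exon 4, 15.8-fold for exon 5 and 4.50-fold for exon 6. Pull-down 1 alone gave 1.73, 2.04, 3.31, 9.76 and 2.42-fold for exons 2 to 6, and pull-down 2 gave 3.67, 4.54, 8.16, 21.8 and 6.57-fold. A test of each exon against the others of the gene, given below, called none of them. Of the 6 distinct exon features with at least 1 RPM, 3 were called higher with edgeR, beside 6.41% of all features. They were exon 3 with a log2 ratio of 1.81 (adjusted p = 0.0390), exon 4 with 2.56 (adjusted p = 0.0393) and exon 5 with 3.92 (adjusted p = 0.0116). Exon 2 with 1.50 (adjusted p = 0.0750), exon 6 with 2.24 (adjusted p = 0.0518) and the separate form of exon 6 in transcript 2 with 2.34 (adjusted p = 0.0534) did not pass. In all, 44 of the 101 members passed the minimum, 43 of them exon features. As listed, however, exon 4 (0.522 and 0.465 RPM in the inputs), exon 5 (0.181 and 0.143 RPM) and both forms of exon 6 were under 1 RPM in the crosslinked inputs and passed only through the pull-downs, where they were high. Their selection therefore favoured a difference, and the count of 3 calls is a description and supports nothing.

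Splitting of reads between transcripts bears on these calls. Each exon is listed up to 9 times, and a listed feature holds only its fraction of the reads. With identical features summed before the fit, all 6 distinct exon features tested were called higher, beside 6.48% of 41054 features. The log2 ratios were then 1.53 for exon 2, 1.81 for exon 3, 2.61 for exon 4, 4.04 for exon 5 (SE 0.42, edgeR adjusted p = 0.000257), and 2.25 and 2.34 for the forms of exon 6. In these sums, 5 of the 6 were at or above 1 RPM in both crosslinked inputs, the exception being the form of exon 6 in transcript 2.

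**Figure D3:**
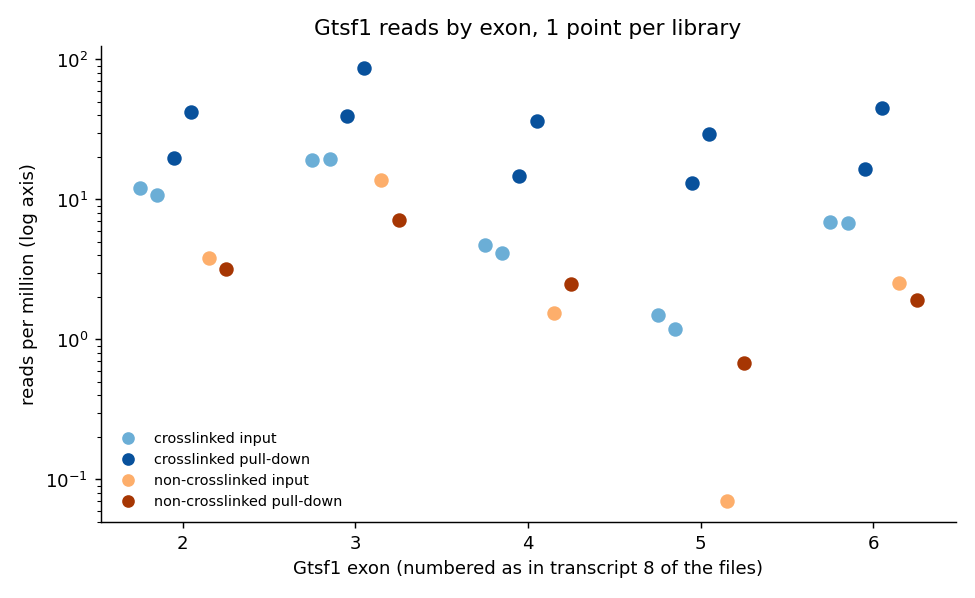
RPM of Gtsf1 exons 2 to 6 in each library on a log axis, with 1 point per library coloured by group. At exon 5 the crosslinked inputs lie at 1.49 and 1.19 RPM and the crosslinked pull-downs at 13.1 and 29.2 RPM, the widest gap of the 5 exons, and the non-crosslinked input lies lowest at 0.0707 RPM, which is 1 read.

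The make-up of the exon reads was compared next. Exon 5 held 3.35% of the Gtsf1 exon reads in crosslinked input 1 (95% Wilson interval 2.30 to 4.87%) and 2.82% in input 2 (1.87 to 4.23%). In the crosslinked pull-downs it held 12.6% (11.1 to 14.3%) and 12.2% (11.2 to 13.2%). Unlike the level of the whole transcript, this share was nearly the same in both pull-downs. The share of exon 2 was 27.4% and 25.5% in the inputs and 19.1% and 17.5% in the pull-downs, and that of exon 3 was 43.2% and 45.8% against 38.0% and 36.5%. The share of exon 4 was 10.6% and 9.87% against 14.2% and 15.1%, whereas the shares of exon 6 overlapped, at 15.5% and 16.0% against 16.0% and 18.7%.

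No share could pass a test over libraries, because the exact permutation p was 0.333 for exons 2, 3, 4 and 5, the smallest possible, and 0.667 for exon 6. A fit over the exons of all genes set each exon against its own gene. In it exon 5 was higher in the pull-downs by 1.96 on the log2 scale relative to the other Gtsf1 exons, with an unadjusted p of 0.0133 and an edgeR adjusted p of 0.204, and was not called. The other exons tested had adjusted p-values of 1.00. Of 6727 exons in that fit, 2.23% were called higher. The relative ratio lay between 1.84 and 2.10 in the 8 settings run, but its adjusted p was 0.000261 without pull-down 1, 0.000103 without pull-down 2, 0.896 without input 1 and 0.815 without input 2. The size was steady and the call was not.

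**Figure D4:**
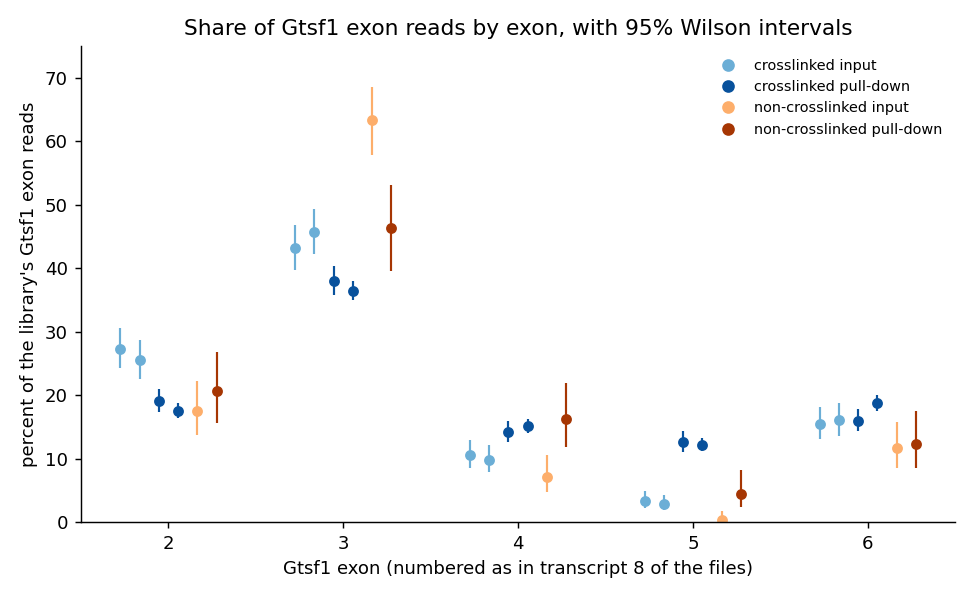
Share of each library's Gtsf1 exon reads in exons 2 to 6, in percent, with 95% Wilson intervals that cover counting error only. Exon 3 holds the largest share in every library, up to 63.3% in the non-crosslinked input. Exon 5 holds 3.35% and 2.82% in the crosslinked inputs beside 12.6% and 12.2% in the crosslinked pull-downs.

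The third question was whether the higher Gtsf1 level in the pull-downs depended on crosslinking. Without crosslinking, the exon sum went from 21.8 RPM of the input to 15.4 RPM of the pull-down, a fold of 0.708. The pre-mRNA feature went from 49.2 to 40.6 RPM, a fold of 0.826. The non-crosslinked pull-down thus lay below the non-crosslinked input for both, whereas both crosslinked pull-downs lay above both crosslinked inputs. These groups have 1 library each, so the non-crosslinked ratio has no replicate check.

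On the log2(RPM + 1) scale, the exon sum of Gtsf1 had a ratio of 1.84 with crosslinking and -0.47 without it. The medians over 8047 genes were -0.17 and -0.30. The difference between the ratios was 2.31, rank 6 among these genes, and the ratio with crosslinking alone ranked 87. Gtsf1 thus had the sixth largest difference between the pairs, in the direction of a higher ratio with crosslinking.

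**Figure D5:**
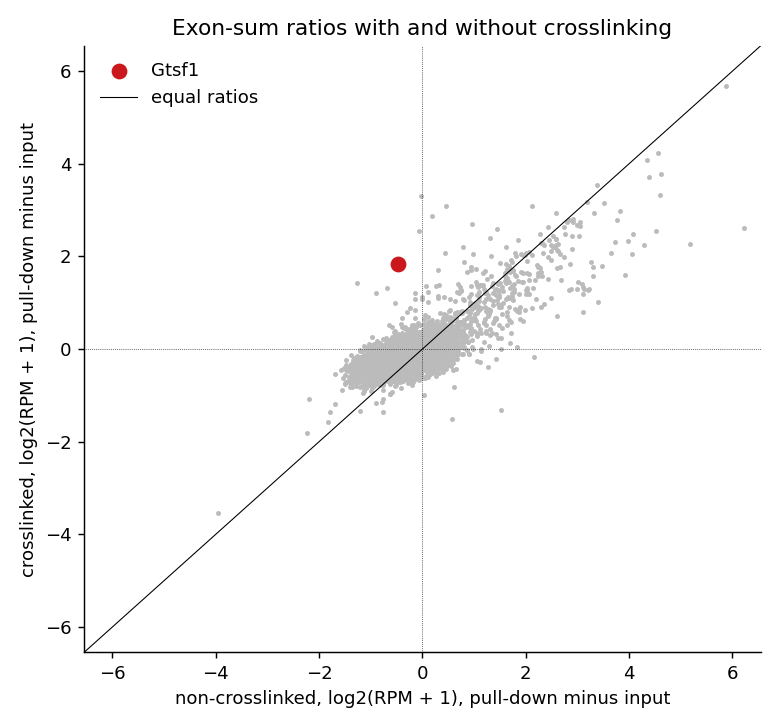
Pull-down minus input on the log2(RPM + 1) scale for the exon sums of 8047 genes, with the non-crosslinked pair on the x axis and the mean of the crosslinked libraries on the y axis. Gtsf1 (red) lies at -0.47 and 1.84, away from the line of equal ratios along which most genes with high ratios are spread.

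The test of that difference over all 6 libraries did not pass after adjustment. edgeR gave a difference of 2.48 (SE 0.52), with an unadjusted p of 0.000137 and an adjusted p of 0.0584. Of 8047 genes, 2 were called higher (0.0249%) and 14 lower. The adjusted p was 0.0103 with unannotated reads in the library sizes and 0.0134 with limma, and 5.60e-05 and 0.0229 without crosslinked pull-down 1 and 2, whereas it was 0.141 and 0.245 without crosslinked input 1 and 2, 0.108 with a minimum of 5 RPM, 0.206 with TMM factors and 0.934 both with DESeq2 and with no filter. The size stayed between 1.73 and 2.97 in these settings. For the pre-mRNA feature the difference was 2.01 (SE 0.62, edgeR adjusted p = 0.305), in a fit of 33887 features of which 0% were called higher and 5065 had an unadjusted p under 0.05.

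The pull-downs can also be compared directly. The exon sum of Gtsf1 was higher in the crosslinked than in the non-crosslinked pull-down by 3.47 on the log2 scale (SE 0.42, edgeR adjusted p = 0.000173). The non-crosslinked side is 1 library, and the fit assumes that it varies like the other groups. Without crosslinked pull-down 2 the difference was 2.73, and without pull-down 1 it was 3.97. In this comparison 47.7% of 8047 genes were called higher and the median of all genes was 0.81, and both shift with the scaling. With TMM factors the median was 0.02, the calls were 23 higher and 88 lower in place of 3842 and 47, and Gtsf1 rose by 2.67 (adjusted p = 0.0106). The comparison shares the crosslinked pull-downs with those above.

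The inputs with and without crosslinking were compared as well, with 1 library on the side without it. The exon sum was 43.4 ± 1.44 RPM (SD, n = 2) in the crosslinked inputs and 21.8 RPM in the non-crosslinked input, a log2 difference of 1.00 (SE 0.37, edgeR adjusted p = 0.0556), where 23.5% of genes were called higher and the median was 0.58. This did not pass, but it was called with unannotated reads in the library sizes (adjusted p = 0.0409), with limma (0.0305) and without crosslinked pull-down 1 or 2 (0.00882 and 0.00978), and not with the other 6 settings. Those were TMM factors (0.41, adjusted p = 0.784), DESeq2 (0.41, 0.979), no filter (0.256), a minimum of 5 RPM (0.0677), and leaving out crosslinked input 1 (0.179) or 2 (0.112). Pre-mRNA was at 46.6 ± 0.453 RPM and 49.2 RPM in the same libraries. Pre-mRNA made up 69.3% and 72.5% of the exon and pre-mRNA reads of Gtsf1 in the non-crosslinked input and pull-down, against 46.7 to 52.2% in the 4 crosslinked libraries, a contrast that was not tested. The whole pre-mRNA class was also larger relative to the exon class without crosslinking, at 0.292 and 0.266 against 0.148 to 0.213.

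Single exons without crosslinking were thinly covered. Exon 3 had a pull-down to input fold of 0.518 with a 95% interval from counting of 0.401 to 0.666. Exon 2 had 0.836 (0.545 to 1.27), exon 4 had 1.61 (0.912 to 2.90) and exon 6 had 0.746 (0.429 to 1.28). Exon 5, with 1 read in the input and 9 in the pull-down, had a fold of 9.67 with an interval of 1.34 to 424. The single input read is under the floor of 3 reads, so exon 5 without crosslinking could not be judged. The fit of the difference of ratios, with identical features summed, gave 1.68 for exon 2 (edgeR adjusted p = 0.238), 2.66 for exon 3 (0.194), 1.83 for exon 4 (0.298), 0.80 for exon 5 (0.906), and 2.52 and 3.10 for the forms of exon 6 (0.219 and 0.443). None of these passed. Of 35483 features in that edgeR fit 0% were called higher, and 6615 had an unadjusted p under 0.05, among them exon 2 (0.0332), exon 3 (0.00260) and the first form of exon 6 (0.0235).

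Relatives and partners of Gtsf1 gave a view of the same pathway on the chromosomes. Of the paralogs Gtsf1l and Gtsf2, the first had at most 0.0620 RPM, or 1 read, over its exons and the second was at 0 in all 6 libraries. Of 25 other genes of the piRNA pathway, 23 had an exon read, and the sum over all 25 was 8.41 and 7.96 RPM for inputs and 8.50 and 8.77 RPM for pull-downs after crosslinking, and 5.82 and 3.78 RPM for input and pull-down without it. The exon sum of Gtsf1 alone was above that of these genes together in every library.

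Only 3 of these genes reached the minimum for a test, and they did not pass it. Tdrkh, a Tudor protein that tethers PIWI proteins to mitochondria, had 3.89 and 3.10 RPM before and 4.15 and 3.90 RPM after the crosslinked pull-down, with a log2 ratio of 0.30 (edgeR adjusted p = 0.464). Tex15, a nuclear factor of piRNA-directed silencing, had a log2 ratio of -0.47 (adjusted p = 0.496). Tdrd7, a Tudor protein of germ cell granules, had -0.58 (adjusted p = 0.428). The median of the 3 was -0.47, beside -0.13 over all genes.

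Other lists served as a scale for the ratio of Gtsf1. The 7 spliced comparison genes that could be tested had log2 ratios from -0.46 to 0.01, with a median of -0.27 and adjusted p-values of 0.200 or more. Of 8 pluripotency genes, 4 could be tested, with a median of -0.22 and adjusted p-values of 0.226 or more. No germ cell marker reached the minimum. Of 6 markers of differentiated cells 2 could be tested, and Gata6, an endoderm transcription factor, had a log2 ratio of 2.85 (edgeR adjusted p = 6.86e-06), with 0.310 and 0.615 RPM before and 3.13 and 3.00 RPM after the crosslinked pull-down. Gata6 was under the minimum of 1 RPM in both inputs and reached the test only through the pull-downs, where it was high, so its call is a description. Unlike Gtsf1, Gata6 was also higher in the non-crosslinked pull-down, at 2.27 RPM, than in its input, at 0.0707 RPM. Tubb3, a neuronal tubulin, was the other marker tested, with a log2 ratio of 0.18 (edgeR adjusted p = 0.752), and went from 2.26 to 1.28 RPM in the non-crosslinked pair.

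The genes whose exon sums were most like that of Gtsf1 over the 6 libraries were Phf23 (Pearson r = 0.971), Znrf2 (0.966), Sipa1l3 (0.963), Clasrp (0.963) and Strn4 (0.960), out of 2511 genes compared on the log2 scale. The 6 points share library depth and composition, so these values describe likeness of order and not of size. Znrf2, a ubiquitin ligase, had 5.58 and 5.02 RPM before and 11.7 and 13.1 RPM after the crosslinked pull-down and 3.67 RPM in each non-crosslinked library. The 5 genes were chosen by these same values, so no test of their ratios is given.

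The authors' deposited table of enrichment ratios gave the exons in a similar order. In the authors' deposited table, exon 5 had 42.6 for the form in transcript 1 and 23.3 for the other form, exon 4 had 11.4, exon 6 had 9.86 and 9.29, exon 3 had 6.83, the pre-mRNA feature had 6.66 and exon 2 had 5.26. The 2 highest ratios belong to thinly covered features. As listed, the form of exon 5 in transcript 1 had 0.778 and 1 reads in the crosslinked inputs, under the floor of 3 reads. The other form had 3.2 and 2.6 reads there. The medians of the authors' deposited table were 1.37 over 216085 features, 1.32 over exon features and 0.740 over pre-mRNA features. It held 45 Gtsf1 features, of which 0 were introns. How the ratio was computed is not given in the sources used here, so the values rank features within that table and carry no error.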

How the data were processed

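Reads were counted over annotated features in 6 eCLIP libraries of P19 cells. Per the submitters' processing notes, bcl2fastq 2.19, STAR 2.5.2b, bedtools 2.29.0 and the build mm10 were used; the annotation, duplicate removal and use of strand are not given in the sources used here. Without a stated strand, reads of an antisense transcript could not be told apart. The authors deposited expected counts per feature, in which a read that matched several features of a class was split into equal fractions. The authors' deposited RPM values divide these counts by all reads of the library, unannotated ones included, and scale them to 1000000. The authors' deposited enrichment ratio covers the whole series, with an unstated formula.

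Counts were rounded and tested with edgeR 4.0.16 (quasi-likelihood) in R 4.3.3, with annotated reads as library sizes, a minimum mean of 1 RPM in the libraries fitted and Benjamini-Hochberg adjusted p under 0.05. Crosslinked groups were compared over 4 libraries, the difference of ratios over 6. Exon over intron used limma 3.58.1 on log2(RPM + 1), and each exon was set against its gene with edgeR's diffSpliceDGE. Fits ran over all genes or features. The plan's tests of the intron sum and of exon over intron with both sums filtered gave no value for Gtsf1, whose intron sum was under the minimum; the unfiltered intron value, the filter on the exon sum alone, the sum of identical features, the exon usage fit, the input comparison and the feature-level difference of ratios were added after the data were seen. Named genes were all Gtsf1 features, its paralogs, the called and 3 highest genes of the piRNA list, the spliced comparison genes and the 5 genes most like Gtsf1 with a mean of at least 5 RPM; marker genes named beside them were chosen after their values were seen. The members and lists were chosen with earlier results of these data known.

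Alternatives were other filters, TMM factors, library sizes with unannotated reads, a replicate block, all 6 libraries in 1 fit, DESeq2 1.42.0, limma, other pseudocounts and each crosslinked library left out. Intervals of shares are 95% Wilson intervals, and intervals of folds between single libraries are exact; both cover counting error only, since PCR reads are not independent molecules. Replicate 1 and 2 are names of libraries. Deviations of same-numbered input and pull-down correlated at 0.111 over 39872 features, with 2 pairs only, and the labels do not tie the numbers to a culture, so the numbers were not taken as pairs.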

Additional observations from a re-analysis of the deposited data

Results flagged for a closer look

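The pull-down to input ratio of Gtsf1 went opposite ways with and without crosslinking. For the exon sum, the difference between the 2 log2(RPM + 1) ratios was 2.31, from 1.84 after crosslinking and -0.47 without it. Both crosslinked pull-downs and the single non-crosslinked pull-down kept to these directions. The median exon-sum ratio over 8047 genes was -0.17 with crosslinking and -0.30 without it. A negative ratio without crosslinking was therefore not particular to Gtsf1. For the pre-mRNA feature the difference was 1.90, from 1.63 and -0.27. The edgeR tests of these differences gave adjusted p-values of 0.0584 for the exon sum and 0.305 for the pre-mRNA feature, so neither passed, and each non-crosslinked ratio rests on 1 library a side.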

How the results depend on the processing

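The exon-sum ratio kept its direction and its call in all 12 alternatives, and the direct comparison of pull-downs, with 1 library on its non-crosslinked side, in all 10; the replicate block gave 1.96 (adjusted p = 8.08e-12) for the exon sum and 1.74 (adjusted p = 0.0452) for the pre-mRNA feature, and among the other Gtsf1 comparisons it was run on it changed only the count of single exons below. It was not run on the 6-library comparisons. The pre-mRNA ratio lost its call without a filter (1.84, adjusted p = 0.589). The difference of ratios became called with unannotated reads in the library sizes (2.48), with limma (2.31) and without either crosslinked pull-down, and stayed uncalled without either crosslinked input (adjusted p = 0.141 and 0.245), with a minimum of 5 RPM (0.108), with TMM factors (0.206), with DESeq2 and with no filter (0.934 each); leaving out 1 library gave 1.73 to 2.97, where a lone library is assumed to vary like the others. The count of distinct single exons called, 3, was 5 with the replicate block, 6 with DESeq2, 6 with identical features summed, 2 to 6 with 1 library left out, and 0 with a minimum of 5 RPM, where no exon feature remained to be tested. The exon share difference of 0.41 percentage points was 3.71 with pre-mRNA reads in the denominator and ranged from -0.035 (without crosslinked input 1) to 0.852 with 1 library left out. The cause of these changes was not tested. Genes called over all exon sums numbered 510, and 222 to 895 in the alternatives; for the difference of ratios they numbered 16, and 0 to 58. DESeq2 left the adjusted p of 5928 genes undefined in that fit. The intron-sum test, and exon over intron with both sums filtered, had no value for Gtsf1 and so no alternatives. Intron reads limit any statement on introns to a few counts, and the non-crosslinked groups have 1 library each.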
